A study of Mus musculus with 18 samples.

Results

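The genes described here are those for making, sulfating and breaking down glycosaminoglycans (GAGs), the sugar chains of proteoglycans. The set was drawn up by function and not by a rule on measured values, but with earlier results of these data known. By enzyme step, 58 genes were listed, from the linker that joins chain to protein to the lysosomal enzymes that take it apart. Rows were taken from the deposited table by gene name. Of the 58 genes, 52 had a row among the 12012 genes of the table. The other 6 genes (Chsy3, Chst7, Chst14, Extl1, Hs3st2 and Papss2) had no row and count as below the floor of the table, in which the lowest mean over the 8 libraries was 40.7 normalized counts.

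Chondroitin sulfate, dermatan sulfate and heparan sulfate are built in the Golgi on the same short linker. The chains are then patterned by epimerases and by sulfotransferases, and every sulfotransferase draws on the same sulfate donor, PAPS. Hyaluronan is made at the plasma membrane without a core protein and without sulfate. In brain, chondroitin sulfate proteoglycans (CSPGs) fill the extracellular matrix around neurons, the position of the sulfate groups influences which proteins a chain binds, and loss of single lysosomal enzymes causes the mucopolysaccharidoses, many of which affect the brain.

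RNA was sequenced from cultures of hippocampal neurons of E18.5 embryos. WT-CSPG cultures came from wild-type mice and KO-CSPG cultures from Fibcd1 -/- mice, a whole-animal knockout on a C57BL/6J background that lacks the GAG-binding receptor FIBCD1, and both were plated on coverslips coated with CSPGs. The table has columns for replicates A to D of each of these groups, 8 of the 18 libraries that the series labels. Not analysed here were the cultures on uncoated coverslips (5 WT and 4 KO libraries) and the fifth WT-CSPG library, so genotypes are compared on CSPG and nothing is said of the response to CSPG itself. A replicate is 1 preparation of cells.

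Depth over the table genes was 10099564 to 11174615 reads in WT-CSPG and 10541445 to 11647202 reads in KO-CSPG. Fibcd1 was at 54.3, 70.4, 60.1 and 182 normalized counts in WT-CSPG A to D and at 0.970, 0.932, 7.16 and 4.74 in KO-CSPG A to D (log2 fold change -4.48 ± 0.58 SE, adjusted p = 0.00599 by limma), as the labels give it. All 10 neuron markers had a row, and so did all 10 astrocyte and radial glia markers, so the cultures labelled as neurons held glia as well. Summed oligodendrocyte lineage markers were at 1417 to 1838 normalized counts in WT-CSPG and 2111 to 2364 in KO-CSPG, with Olig1 and Olig2 past the threshold. Summed choroid plexus markers were at 162 to 3999 in WT-CSPG and 209 to 527 in KO-CSPG. The 4 Y-linked genes were lower in KO-CSPG (log2 fold change -0.85 to -0.67) and Xist was higher (0.67, adjusted p = 0.0367 by limma), so the sex of the embryos and the genotype cannot be told apart. In bulk cultures, fewer cells of a type and less RNA per cell cannot be told apart either.

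The pathway ran at very different levels from gene to gene, and these levels lay close together in the 2 genotypes. Levels between genes are given as normalized counts per kilobase of gene length. Members had a median of 78.7 per kilobase, against 95.2 for all genes of the table, and 19 of the 52 lay above the table's median. Ids, the lysosomal iduronate-2-sulfatase that heparan and dermatan sulfate breakdown starts with, was the highest member at 1259 per kilobase, and Sulf1, an extracellular endosulfatase, was the lowest at 9.69. Within breakdown the range was wide, and the level of Ids per kilobase was 89.0 ± 9.09 times that of Sgsh, the N-sulfoglucosamine sulfohydrolase, in WT-CSPG and 81.9 ± 15.6 times in KO-CSPG (SD, n = 4 each).

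**Figure D1:**
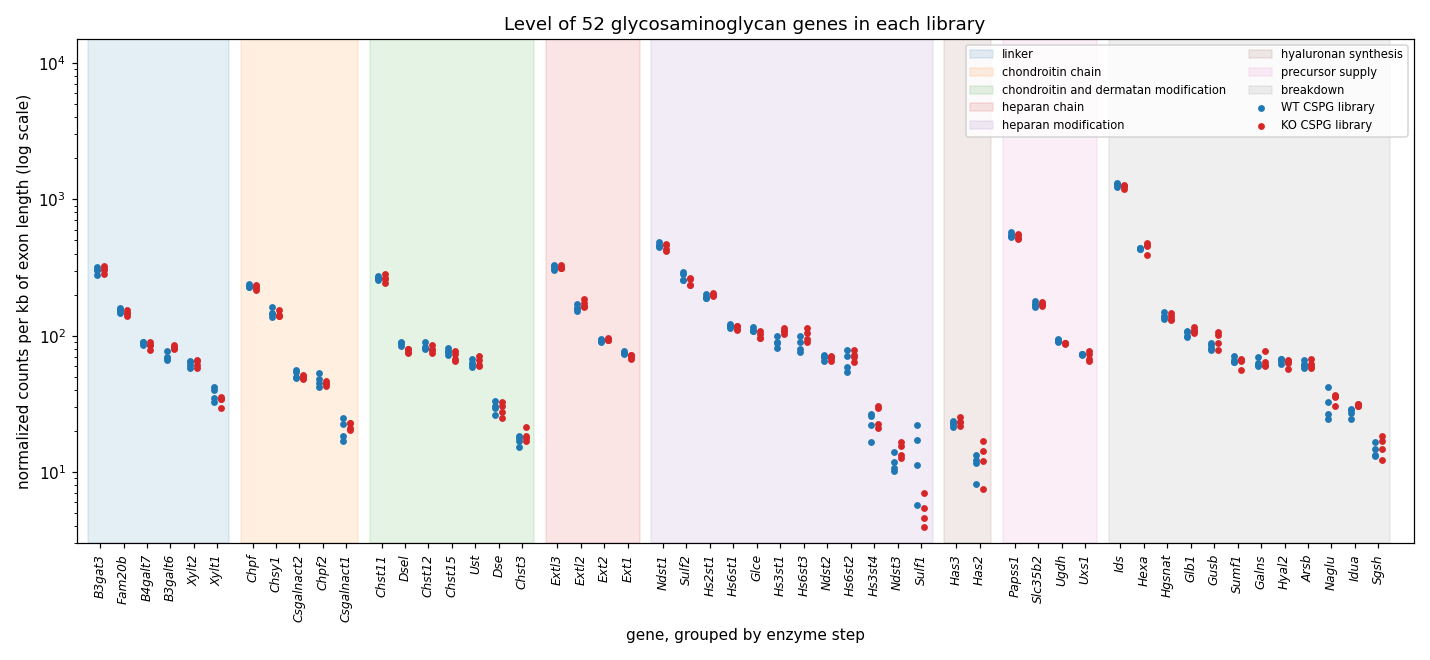
Level of each of the 52 members in 4 WT-CSPG and 4 KO-CSPG libraries, in normalized counts per kilobase on a log axis, with genes grouped and shaded by enzyme step and 1 point per library (WT-CSPG blue, KO-CSPG red). The points of the 2 groups overlap or nearly touch in most genes, while the mean levels run from 9.69 (Sulf1) to 1259 (Ids).

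Each step had 1 gene that led it. B3gat3, the glucuronyltransferase that completes the linker, led the linker genes at 303 per kilobase. Chpf, a chondroitin polymerising factor, led chain extension at 229, and Chst11, a chondroitin 4-O-sulfotransferase, led chondroitin and dermatan modification at 264. Extl3, which places the first N-acetylglucosamine of a heparan chain, led that step at 318, and Ndst1, the N-deacetylase/N-sulfotransferase that opens heparan sulfation, led heparan modification at 455. Has3 led the pair of hyaluronan synthases at 23.0, and Papss1, the PAPS synthase with a row, led precursor supply at 540.2.

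Paralogues and partners of 1 step differed in level by unequal amounts. The level of Ndst1 was 6.70 ± 0.42 times that of Ndst2 in WT-CSPG and 6.48 ± 0.17 times in KO-CSPG (SD, n = 4 each). The level of Extl3 was 4.24 ± 0.16 times that of the polymerase gene Ext1 in WT-CSPG and 4.52 ± 0.12 times in KO-CSPG. Other pairs lay closer, with Xylt2 at 1.67 ± 0.18 times Xylt1 in WT-CSPG and 1.88 ± 0.15 times in KO-CSPG, and Hs6st1 at 1.83 ± 0.27 times Hs6st2 and 1.61 ± 0.094 times. Papss2 and the neuronal 3-O-sulfotransferase gene Hs3st2 were below the floor while Papss1 and Hs3st1 had rows. The same held for Chsy3 beside Chsy1, and for Chst14, the dermatan 4-O-sulfotransferase, beside the dermatan epimerases Dse and Dsel.

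No member passed the threshold between KO-CSPG and WT-CSPG. Of the 52 members, 0 had an adjusted p under 0.05 in limma (smallest 0.0576, Hs3st1), against 346 of the 12012 genes, or 2.88%. At an unadjusted p under 0.05 there were 9 members (17.3%), against 16.2% of all genes. Of these, 5 had a higher mean in KO-CSPG (9.62% of members, against 7.51% of all genes) and 4 a lower one (7.69%, against 8.67%). All 4 values of 1 group lay above all 4 of the other for 6 members (11.5%), against 9.22% of all genes. These shares are near the background, and the members' median log2 fold change was -0.01, against 0.00 for all genes. The summed oligodendrocyte lineage markers, the Y-linked genes and Xist also did not overlap between the groups. Their part in the values of the 6 members was not tested. Fold changes with the summed Y-linked level as covariate are given below for single genes. Genotype accounts for 91.2% of that covariate's variance, so this fit cannot separate sex from genotype, and a smaller or larger value in it has no assigned cause.

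The intervals show how closely the difference between the groups was measured. Sex was not in this fit and cannot be told apart from genotype, so the intervals do not bound a difference due to genotype alone. The 95% interval of the log2 fold change lay within ±0.5 (a 1.41-fold difference) for 48 of the 52 members and within ±0.25 (1.19-fold) for 35. The median distance from the fold change to either end of its interval was 0.14. Not inside ±0.5 were Sulf1 (-2.35 to -0.18), Ndst3 (0.09 to 0.55), the 3-O-sulfotransferase gene Hs3st4 (-0.12 to 0.52) and the hyaluronan synthase gene Has2 (-0.33 to 0.58). Fold changes are on the log2(value + 1) scale, which understates the change of low genes.

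**Figure D2:**
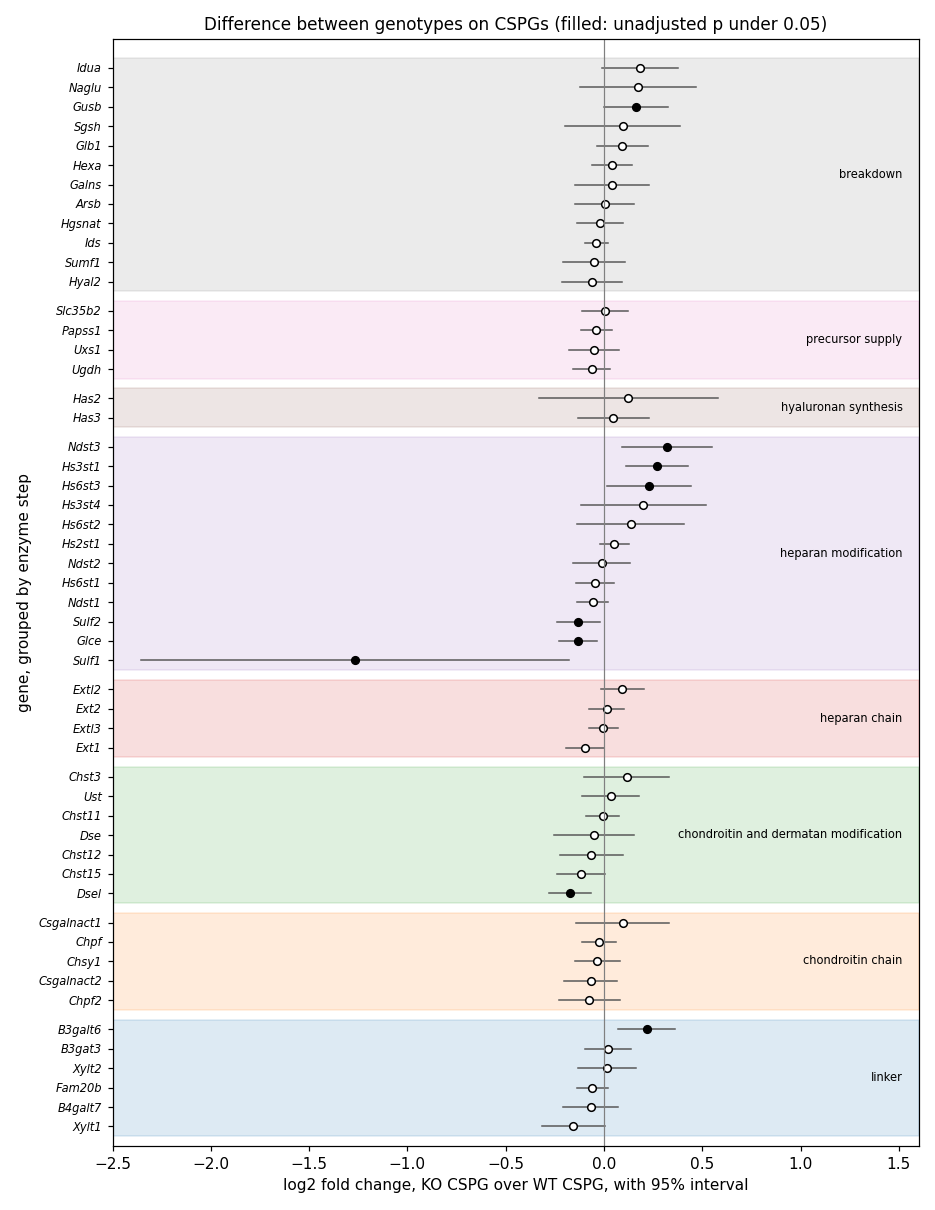
Log2 fold change of KO-CSPG against WT-CSPG with its 95% interval for each of the 52 members, ordered by enzyme step and with 1 point per gene. Filled points mark an unadjusted p under 0.05. Most intervals cross 0 and are narrow, and Sulf1 stands apart at -1.27 with an interval from -2.35 to -0.18.

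The linker genes all had a row (6 of 6), with log2 fold changes from -0.16 to 0.22. B3galt6, the galactosyltransferase that adds the second galactose of the linker (chromosome 4, 155989466 to 155992649, GRCm38), was at 211, 223, 218 and 245 normalized counts in WT-CSPG A to D and at 263, 271, 257 and 252 in KO-CSPG A to D. The groups did not overlap. The log2 fold change was 0.22 ± 0.07 (SE, adjusted p = 0.0975 by limma, n = 4 each), and it was 0.01 when the summed Y-linked level was a covariate. B3gat3 was at 488, 483, 443 and 514 in WT-CSPG and at 452, 486, 515 and 502 in KO-CSPG, with full overlap. Xylt1, a xylosyltransferase that starts the linker on the core protein, had a log2 fold change of -0.16, its paralogue Xylt2 of 0.02, the xylose kinase gene Fam20b of -0.06 and the first galactosyltransferase gene B4galt7 of -0.07.

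Chondroitin chain genes differed little, with 5 of 6 in the table and log2 fold changes from -0.07 to 0.09. Chpf was at 875, 869.6, 922 and 889 normalized counts in WT-CSPG A to D and at 858, 897, 906 and 836 in KO-CSPG A to D, a log2 fold change of -0.02 ± 0.04 (SE), or -0.10 with the Y-linked covariate. The polymerase genes Chsy1 and Chpf2 had log2 fold changes of -0.03 and -0.07. The chain-starting N-acetylgalactosaminyltransferase genes Csgalnact1 and Csgalnact2 stood at 0.09 and -0.07, and the level of Csgalnact2 per kilobase was 2.58 ± 0.44 times that of Csgalnact1 in WT-CSPG and 2.28 ± 0.14 times in KO-CSPG (SD, n = 4 each).

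Chondroitin and dermatan modification had 7 of 9 genes in the table, with log2 fold changes from -0.17 to 0.11. Dsel, a glucuronyl C5-epimerase that turns chondroitin into dermatan sulfate (chromosome 1, 111858702 to 111864918), was at 512, 515, 485 and 509.5 normalized counts in WT-CSPG A to D and at 463, 428, 439 and 464 in KO-CSPG A to D. Every KO-CSPG library lay below every WT-CSPG library. The log2 fold change was -0.17 ± 0.05 (SE, adjusted p = 0.0720 by limma, n = 4 each), and -0.06 with the Y-linked covariate. Its paralogue Dse overlapped between groups, with a log2 fold change of -0.05.

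The position of the sulfate on N-acetylgalactosamine is set by different enzymes, Chst11 and Chst12 for 4-O and Chst3 for 6-O, with the second 6-O gene Chst7 below the floor. Chst11 was at 1467, 1501, 1468 and 1411 normalized counts in WT-CSPG A to D and at 1467, 1440, 1354 and 1566 in KO-CSPG A to D, with full overlap. The summed level per kilobase of Chst11 and Chst12 over that of Chst3 was 20.4, 19.8, 22.6 and 18.7 in WT-CSPG and 19.4, 18.4, 15.3 and 21.4 in KO-CSPG. The means were 20.4 ± 1.67 and 18.6 ± 2.55 (SD, n = 4 each), a KO-CSPG to WT-CSPG ratio of 0.915, so 4-O genes were far above the 6-O gene in every library and the groups differed by about the spread between libraries. Chst15, which adds a 6-O-sulfate to a 4-O-sulfated unit to make chondroitin sulfate E, had a log2 fold change of -0.12 ± 0.06 (SE, adjusted p = 0.329 by limma, n = 4 each), and Ust, the uronyl 2-O-sulfotransferase, of 0.03.

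Heparan chain genes had 4 of 5 members in the table, with log2 fold changes from -0.10 to 0.09. Extl3 was at 1881, 1971, 1811 and 1950 normalized counts in WT-CSPG A to D and at 1870.4, 1963, 1886 and 1871 in KO-CSPG A to D, and its 95% interval was -0.08 to 0.07. Its fold change was -0.20 on the log2 scale when the Y-linked level was in the fit (adjusted p = 0.766 by limma). Ext1 and Ext2 encode the 2 subunits of the heparan polymerase. Ext1 was at 592, 601, 605 and 627 in WT-CSPG and at 581, 579, 565 and 545 in KO-CSPG, without overlap but with an adjusted p of 0.324 by limma (log2 fold change -0.10 ± 0.05 SE, or -0.17 with the Y-linked covariate), while Ext2 stood at 0.01 ± 0.04. Extl2, a transferase that can end a chain at the linker, had a log2 fold change of 0.09.

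Heparan modification held 6 of the 9 members with an unadjusted p under 0.05, 3 in each direction, among its 12 genes in the table (13 listed), against 16.2% of all genes at the same threshold. None of the 12 had an adjusted p under 0.05, and whether this step differs from the others was not tested. Hs3st1, a heparan 3-O-sulfotransferase (chromosome 5, 39613935 to 39755475), was at 202, 179.8, 223 and 198 normalized counts in WT-CSPG A to D and at 239.5, 241, 255 and 229 in KO-CSPG A to D. The groups did not overlap. Its log2 fold change was 0.27 ± 0.08 (SE, adjusted p = 0.0576 by limma, n = 4 each), which was 0.32 with an adjusted p of 0.0369 without WT-CSPG C and 0.28 with an adjusted p of 0.0435 under upper-quartile scaling. With the Y-linked covariate it was 0.46 with an adjusted p of 0.766 by limma.

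Ndst3, a paralogue of Ndst1 that favours deacetylation, was at 138, 105, 116 and 99.9 normalized counts in WT-CSPG A to D and at 133, 163, 125 and 153 in KO-CSPG A to D. The groups overlapped through WT-CSPG A, and the log2 fold change was 0.32 ± 0.11 (SE, adjusted p = 0.122 by limma, n = 4 each). With the Y-linked covariate it was 0.42. Hs6st3, a heparan 6-O-sulfotransferase, was at 113, 139.7, 108 and 126 in WT-CSPG and at 148, 127, 134 and 161 in KO-CSPG (log2 fold change 0.23 ± 0.10 SE, adjusted p = 0.269 by limma), also with overlap. Its log2 fold change was 0.21 with the Y-linked covariate. Its paralogues Hs6st1 and Hs6st2 stood at -0.05 and 0.14, and Hs6st2 lies on the X chromosome. Ndst1 itself was at 2829, 2969, 2702 and 2766 in WT-CSPG and at 2804, 2854, 2545 and 2623 in KO-CSPG, a log2 fold change of -0.06 ± 0.04 (SE), or -0.27 with the Y-linked covariate (adjusted p = 0.674 by limma).

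On the lower side, Glce, the heparan C5-epimerase, was at 789.9, 734, 755 and 734 normalized counts in WT-CSPG A to D and at 658, 736, 658 and 699.6 in KO-CSPG A to D. KO-CSPG B lay within the WT-CSPG range, and the log2 fold change was -0.13 ± 0.05 (SE, adjusted p = 0.146 by limma, n = 4 each), or -0.20 with the Y-linked covariate. Sulf2, an endosulfatase that removes 6-O-sulfate from finished heparan chains, was at 1656, 1716, 1501 and 1484 in WT-CSPG and at 1517, 1368, 1375 and 1549 in KO-CSPG. The groups overlapped, and the log2 fold change was -0.13 ± 0.05 (SE, adjusted p = 0.217 by limma), or -0.01 with the Y-linked covariate. The 2-O-sulfotransferase gene Hs2st1 stood at 0.05 ± 0.04.

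Sulf1, the other endosulfatase, had the largest fold change of the 52 members and by far the least even values. It was at 126, 194, 65.0 and 252 normalized counts in WT-CSPG A to D and at 62.1, 79.3, 45.0 and 52.1 in KO-CSPG A to D, so WT-CSPG C lay among the KO-CSPG libraries. The mean was 159 ± 81.1 in WT-CSPG and 59.6 ± 14.9 in KO-CSPG (SD, n = 4 each), and the log2 fold change was -1.27 ± 0.45 (SE, adjusted p = 0.238 by limma). Without WT-CSPG C it was -1.64 with an adjusted p of 0.0176, and with a prior variance that was not robust the adjusted p was 0.0125. With the Y-linked covariate it was -3.08. The level per kilobase of Sulf2 was 24.7 ± 14.6 times that of Sulf1 in WT-CSPG and 49.5 ± 11.9 times in KO-CSPG.

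Sulf1 was read beside the choroid plexus markers, which also varied between cultures. Of 7 such markers, 3 had a row (Ttr, Sostdc1 and Enpp2), and Folr1, Kl, Aqp1 and Clic6 had none. Their summed level was 574, 1283, 162 and 3999 normalized counts in WT-CSPG A to D and 527, 352, 209 and 249 in KO-CSPG A to D, of which Ttr, the thyroid hormone carrier of choroid plexus epithelium, made up 331, 953, 11.6 and 3529 and 243, 115, 5.11 and 21.8. Within WT-CSPG the order of the libraries, D, B, A and C from high to low, was the same for Sulf1 and Ttr. Within KO-CSPG the order was B, A, D and C for Sulf1 and A, B, D and C for Ttr. The other choroid plexus markers followed Sulf1 less closely. Sostdc1 was at 71.1, 91.0, 31.0 and 88.7 in WT-CSPG A to D and at 50.4, 25.2, 38.8 and 69.2 in KO-CSPG A to D, so it was lowest in KO-CSPG B, where Sulf1 was highest of that group. Enpp2 was at 171, 239, 119 and 381 in WT-CSPG, in the order of Sulf1, and at 233, 213, 165 and 158 in KO-CSPG, lowest in D. Summed fibroblast markers, with 4 of 6 genes in the table, ranged from 188 to 615 in WT-CSPG and from 235 to 931 in KO-CSPG, and were lowest in replicate C of both. Oligodendrocyte lineage markers were read as well. Pdgfra was at 126, 260, 109 and 306 in WT-CSPG and at 385, 439, 314 and 364 in KO-CSPG. Sox10 was at 52.2, 63.9, 23.3 and 70.3 in WT-CSPG and at 58.2, 65.3, 41.9 and 55.9 in KO-CSPG. Both had the order of Sulf1 in each group, and the other oligodendrocyte lineage markers did not. The mean of each was higher in KO-CSPG, where that of Sulf1 was lower. The part of any of these cells in the Sulf1 values was not tested.

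**Figure D3:**
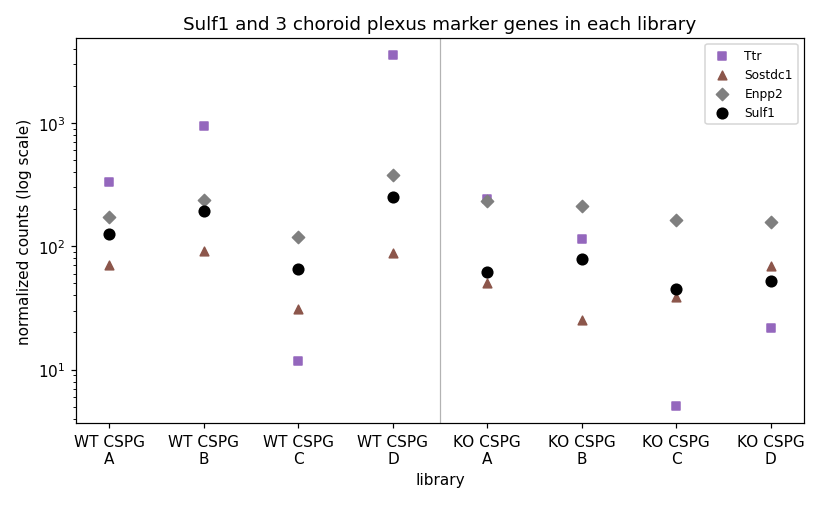
Normalized counts of Sulf1 and of the choroid plexus markers Ttr, Sostdc1 and Enpp2 in each of the 8 libraries, on a log axis, with WT-CSPG A to D on the left and KO-CSPG A to D on the right. Sulf1 and Ttr are both highest in WT-CSPG D (252 and 3529) and both lowest in replicate C within each group, whereas Sostdc1 is highest in WT-CSPG B (91.0) and lowest in KO-CSPG B (25.2), and Enpp2 is lowest in KO-CSPG D (158) within that group.

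Hyaluronan synthesis was at low levels in both groups. Has3 was at 137, 152, 143 and 147 normalized counts in WT-CSPG A to D and at 149, 148, 138 and 162 in KO-CSPG A to D, a log2 fold change of 0.05 ± 0.09 (SE), or -0.05 with the Y-linked covariate. Has2, the other synthase gene with a row, ranged from 34.9 to 56.3 in WT-CSPG and from 31.7 to 72.0 in KO-CSPG, with a log2 fold change of 0.12 ± 0.22 (SE).

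Precursor supply stayed closest to 0 of all steps, with 4 of 5 genes in the table and log2 fold changes from -0.06 to 0.01. Papss1 was at 1602, 1754, 1653 and 1675 normalized counts in WT-CSPG A to D and at 1699, 1589, 1663 and 1558 in KO-CSPG A to D, a log2 fold change of -0.04 ± 0.04 (SE), or -0.12 with the Y-linked covariate. Slc35b2, which carries PAPS into the Golgi, had a log2 fold change of 0.01, and Uxs1, which makes UDP-xylose for the linker, of -0.05. Ugdh, which makes UDP-glucuronic acid for every chain, was at 603 to 634 in WT-CSPG and at 585 to 600.1 in KO-CSPG. These groups did not overlap, yet the log2 fold change was -0.06 ± 0.05 (SE, adjusted p = 0.553 by limma, n = 4 each), or -0.02 with the Y-linked covariate.

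All 12 breakdown genes had a row, with log2 fold changes from -0.06 to 0.18. Of the 12, 8 were positive, against 6018 of all 12012 genes and 14 of the 22 other lysosomal genes. Ids was at 6665, 6526, 6270 and 6565 normalized counts in WT-CSPG A to D and at 6433, 6447, 6076 and 6392 in KO-CSPG A to D, a log2 fold change of -0.04 with a 95% interval of -0.10 to 0.02. Ids lies on the X chromosome. Gusb, the beta-glucuronidase that removes glucuronic acid from chondroitin, dermatan and heparan sulfate, was at 399, 354, 387 and 368 in WT-CSPG and at 462, 480.2, 401 and 357 in KO-CSPG. KO-CSPG D lay within the WT-CSPG range, and the log2 fold change was 0.16 ± 0.08 (SE, adjusted p = 0.303 by limma, n = 4 each), or 0.02 with the Y-linked covariate. Microglia, which are rich in lysosomes, were read beside it: the summed level of the 7 microglia markers with a row (10 listed) was 1978, 1831, 1892 and 1673 in WT-CSPG and 2018, 1967, 2169 and 1742 in KO-CSPG, lowest in replicate D of both groups. Gusb was lowest in D within KO-CSPG but lowest in B within WT-CSPG. Within KO-CSPG it was highest in B, whereas the markers were highest in C. The part of these cells in the Gusb values was not tested.

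Idua, the alpha-iduronidase, was at 103, 122, 120.3 and 114 normalized counts in WT-CSPG A to D and at 132, 129, 129 and 133 in KO-CSPG A to D. The groups did not overlap, and the log2 fold change was 0.18 ± 0.09 (SE, adjusted p = 0.349 by limma, n = 4 each), or 0.01 with the Y-linked covariate. The heparan enzymes Naglu, Sgsh and Hgsnat stood at 0.17, 0.09 and -0.02 on the log2 scale. The chondroitin sulfatase genes Arsb (4-sulfate) and Galns (6-sulfate) stood at 0.00 and 0.04, the beta-hexosaminidase gene Hexa at 0.04, the beta-galactosidase gene Glb1 at 0.09, the hyaluronidase gene Hyal2 at -0.06 and Sumf1, which activates all sulfatases in the endoplasmic reticulum, at -0.05.

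Promoters were read for the breakdown genes because many lysosomal genes carry an E-box (CACGTG), within the longer TCACGTGA that the lysosomal regulator TFEB is known for. Windows of 300 bases (250 before and 50 after the start) came from RefSeq on GRCm38.p6, and both motifs read the same on either strand, with each TCACGTGA also counted as a CACGTG. The stretches that hold them in 4 breakdown genes, and in Extl2 as the other member with the longer motif, follow 5′ to 3′ on the strand of the gene, with the motif in capitals.
Glb1: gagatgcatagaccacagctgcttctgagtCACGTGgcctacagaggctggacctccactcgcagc
Naglu: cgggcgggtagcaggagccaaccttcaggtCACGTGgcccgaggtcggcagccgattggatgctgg
Sgsh: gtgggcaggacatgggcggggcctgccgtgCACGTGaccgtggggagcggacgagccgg
Sumf1: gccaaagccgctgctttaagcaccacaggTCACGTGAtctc
Extl2: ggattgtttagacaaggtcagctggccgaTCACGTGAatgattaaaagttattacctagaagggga

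The stretches lie at chr9:114401000-114401065 (plus strand) for Glb1, chr11:101069991-101070056 (plus) for Naglu, chr11:119355511-119355569 (minus) for Sgsh, chr6:108185584-108185624 (minus) for Sumf1 and chr3:116008150-116008215 (plus) for Extl2. The CACGTG starts 48, 73, 29, 11 and 117 bases before the RefSeq start site in that order. The gene bounds of the expression table can differ from it. There Naglu starts at 101070012 and Extl2 at 116007462, so the stretch lies partly inside the Naglu gene and wholly inside the Extl2 gene. It was in the windows of 4 of the 10 breakdown genes with a promoter entry (40%) and of 4 of the 37 other members with one (10.8%), against 8.09% of the 27025 genes of the promoter table and 11.9% of the 9242 genes of the expression table with an entry. Among 17 other lysosomal genes with an entry, 8 held it (47.1%). TCACGTGA was in 0.974% of all 32851 windows and in 1.84% of the 11962 windows of genes in the expression table. By gene, it was in 1 of the 10 breakdown genes (10%) and 2 of the 47 members with an entry (4.26%). It was in 5 of the 17 other lysosomal genes (29.4%), against 2.23% of the 9242 genes of the expression table. These matches are descriptions of letters. The log2 fold changes of the 4 breakdown genes with the motif ran from -0.05 to 0.17, inside the range of the 12.

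The log2 fold changes of the other lysosomal genes, 22 of 22 in the table, ran from -0.11 to 0.09 around a median of 0.01. None of the 22 had an adjusted or an unadjusted p under 0.05 in limma, and all 22 intervals lay within ±0.25. Of 27 other GAG enzymes and transporters, 15 had a row and 0 had an adjusted p under 0.05. At an unadjusted p under 0.05 there were 4 of the 15, against 16.2% of all genes, with log2 fold changes of 0.16 for Pxylp1 (which dephosphorylates the linker xylose), 0.22 for Cemip (hyaluronan breakdown), 0.10 for Ugp2 (which makes UDP-glucose) and -0.26 for the sulfatase gene Arsg.

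Among the core proteins that carry heparan sulfate, 9 of 10 had a row. Of these 9, 1 passed the threshold, against 2.88% of all genes. Sdc2, syndecan-2, a transmembrane heparan sulfate proteoglycan of dendritic spines, was at 692, 663, 723 and 656 normalized counts in WT-CSPG A to D and fell to 596, 607, 563 and 639 in KO-CSPG A to D. The groups did not overlap, and the log2 fold change was -0.18 ± 0.05 (SE, adjusted p = 0.0415 by limma, n = 4 each). The call was lost under upper-quartile scaling (adjusted p = 0.0572), without a trend of the prior variance (0.159), with a replicate block (0.0536) and with the Y-linked covariate (log2 fold change -0.08, adjusted p = 0.958 by limma). It was also lost without any 1 of WT-CSPG A, B or C or KO-CSPG A, B or C, with adjusted p-values by limma of 0.0251 to 0.158 over all 8 such fits. The glypican genes Gpc3 and Gpc4 had log2 fold changes of -0.32 and -0.24 with adjusted p-values of 0.293 and 0.228 by limma. Gpc3 and Gpc4 lie on the X chromosome. The other 6 core protein genes lay between -0.06 and 0.06.

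How far members varied between libraries of 1 group differed from gene to gene. The median coefficient of variation of the 52 members was 5.31% in WT-CSPG and 5.82% in KO-CSPG, against 5.49% from read counting alone. It was over 2 times the counting value for 7 members in WT-CSPG and 8 in KO-CSPG. Sulf1 varied by 50.9% in WT-CSPG and by 24.9% in KO-CSPG, against 9.63% from counting. Naglu varied by 25.7% in WT-CSPG, Hs6st2 by 17.0% in WT-CSPG and Has2 by 31.6% in KO-CSPG.

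**Figure D4:**
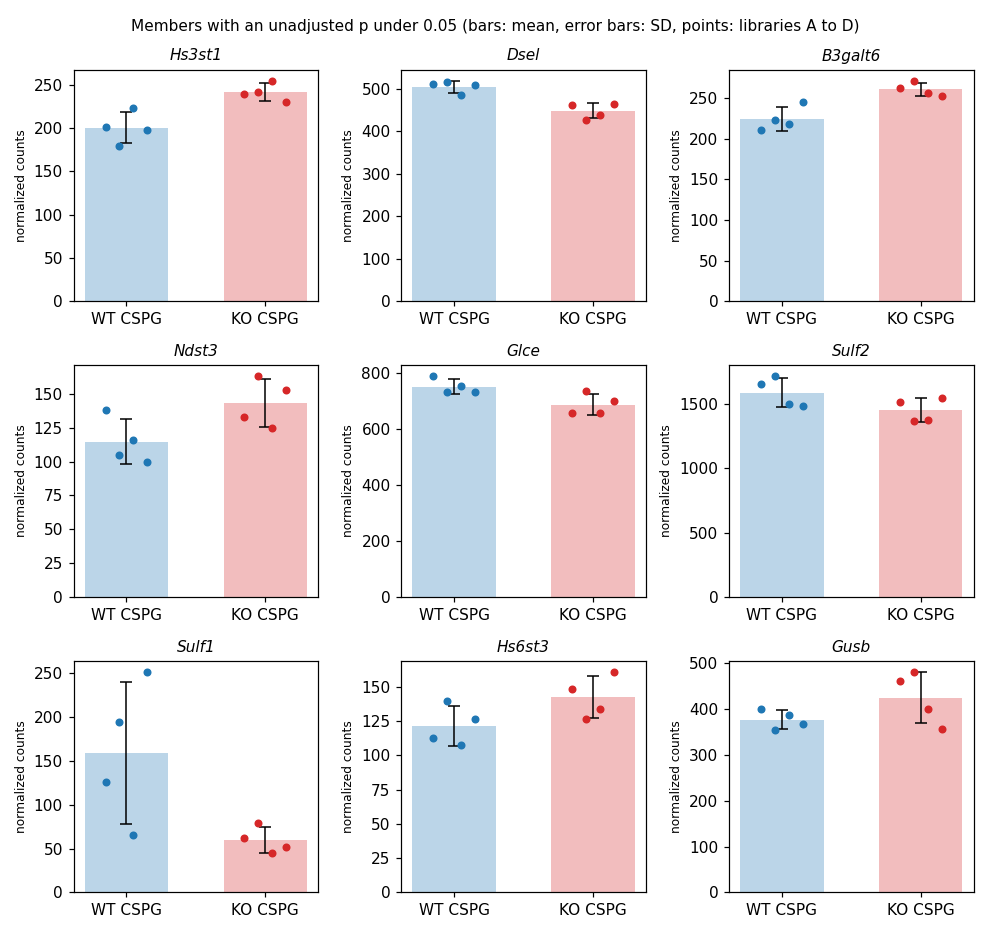
Normalized counts of the 9 members with an unadjusted p under 0.05 in each of the 8 libraries, with 1 panel per gene, bars at the mean of each group, error bars of 1 SD (n = 4 each) and points for libraries A to D. Hs3st1, Dsel and B3galt6 do not overlap between WT-CSPG and KO-CSPG, the other 6 do, and none has an adjusted p under 0.05.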

How the data were processed

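Poly-A RNA of the 18 libraries was sequenced by the authors as single reads, and 8 libraries had columns in the table (0 such columns were left unused). The deposited values are a normalized signal, the reads on each gene scaled by the library's DESeq2 size factor (the tool per the labels). The build was mm10 per the submitters' processing notes, and the aligner, counter and strand setting are not given in the sources used here. The table also holds the authors' fold changes and p-values, which were not used. In each library every value was a whole number of times the value of 1 read, which gave the depth.

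Values were fitted as log2(value + 1) with limma 3.58.1 in R 4.3.3 (trend and robust), two-sided, with Benjamini-Hochberg adjustment over the 12012 genes and a threshold of 0.05. A model for counts had been planned as an alternative and was not run. Intervals are 95%. P-values measure the spread between preparations. Chi-square per degree of freedom between libraries of 1 group was 1.83 to 2.90, so none was a copy. On simulated data for this comparison (12012 genes), 85 of 100 genes changed by 0.5 on the log2 scale and 98 of 100 changed by 1 were recovered, and 11 of 11812 unchanged genes were called. Length is the length column of the table, equal to merged exons in GENCODE M21 for 9495 of 11997 matched genes. RefSeq promoters were found for 47 of the 58 members.

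The members, the lists and the tests were chosen with earlier results of these data known. Values in every library are given for members with an unadjusted p under 0.05, for the member of each step with the highest level per kilobase, for called genes of the comparison lists and for label checks. Ext1, Ugdh, Idua and Has2, the choroid plexus and microglia marker values, and Pdgfra and Sox10 were added after their values were seen.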

Additional observations from a re-analysis of the deposited data

Results flagged for a closer look

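In 3 of 44 groups of 4 libraries examined, the gap between the farthest library and its neighbour exceeded Dixon's 95% critical value, and chance flags about 2.2 of 44. Ids in KO-CSPG C was at 6076 normalized counts, and the other 3 KO-CSPG libraries were at 6392 to 6447. Extl3 in KO-CSPG B was at 1963, and the others were at 1870 to 1886. Fibcd1 in WT-CSPG D was at 182, and the others were at 54.3 to 70.4.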

How the results depend on the processing

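The count of all genes with an adjusted p under 0.05 was 346, and it was 80 without a trend of the prior variance and 2 with the summed Y-linked level as covariate, where genotype accounts for 91.2% of the covariate's variance. Leaving out 1 library gave 186 to 576 (226 without WT-CSPG A, 202 without C, 576 without D, 186 without KO-CSPG A and 204 without C). Upper-quartile scaling gave 182 higher and 178 lower genes, against 131 and 215. Members past the threshold went from 0 to 1 under upper-quartile scaling (Hs3st1), to 1 with a prior that was not robust (Sulf1), and to 0 to 2 when 1 library was left out (Sulf1 and Hs3st1 without WT-CSPG C, B3galt6 at an adjusted p of 0.0407 by limma without WT-CSPG D). With the Y-linked covariate the smallest adjusted p of a member was 0.609 by limma. The cause was not tested.

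Fold changes near 0 changed sign. Extl3 went from -0.0035 to 0.0088 under upper-quartile scaling and to -0.20 with the Y-linked covariate, and ran from -0.027 to 0.014 when 1 library was left out. Chst11 went from -0.0069 to 0.0054 under upper-quartile scaling and to 0.036 with the Y-linked covariate, and ran from -0.042 to 0.028 when 1 library was left out. B3gat3 went from 0.02 to -0.033 with the covariate and ran from -0.019 to 0.058 when 1 library was left out. Has3 went from 0.05 to -0.049 with the covariate. Beside these and the calls gained by members or lost by Sdc2 (10 fits), the other 339 values of single genes and of the 4-O to 6-O ratio kept their direction and their side of the threshold or moved by less than the spread between libraries.

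Replicate letters were not used as pairs in the main fit. Deviations of same-letter libraries correlated at -0.07 (A), 0.10 (B), 0.28 (C) and -0.01 (D). Libraries of different letters were not compared in this way, so whether the letters pair the libraries was not tested. A replicate block gave 429 genes and 0 members past the threshold. The 4-O to 6-O ratio of KO-CSPG to WT-CSPG was 0.920 without division by length and 0.925 for Chst11 over Chst3, and leaving out 1 library, added after the data were seen, moved it by less than the spread between libraries. Count models on recovered reads and TMM factors were not run, so how the calls depend on the kind of test is not known. Genes below a mean of about 40.7 normalized counts are not covered.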
